A study of Mus musculus with 4 samples.

Results

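Methylation of the 10 genes of the methionine cycle enzymes (Mat1a, Mat2a, Mat2b, Gnmt, Ahcy, Ahcyl1, Ahcyl2, Bhmt, Bhmt2 and Mtr) was followed in mouse liver with and without Pnpla7. The 10 genes were chosen by function, out of 34614 annotated protein-coding and lncRNA genes, and every CpG inside a gene or within 10 kb of either end counted towards it. Of 1415 such CpGs listed in the deposited tracks, 794 had at least 10 reads in every library and were analysed, out of 1600691 in the whole series. Bhmt and Bhmt2 are neighbours, and 5 of the analysed CpGs belong to both. The measurement was reduced representation bisulfite sequencing, which reads the methylation of cytosines near the cutting sites of restriction enzymes, here TaqI and MspI. The groups were 2 libraries from Pnpla7-/- mice (KO) and 2 from Pnpla7+/+ mice (WT), all of liver of 6-week-old animals of strain C57BL6/N. How Pnpla7 was inactivated is not stated in the labels. Nor do they say that the libraries are from different mice, so the spread behind each p-value is that of libraries and may be technical.

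The methionine cycle supplies the methyl groups for methylation of DNA, histones, RNA, lipids and small molecules. Methionine adenosyltransferases join methionine to ATP and make S-adenosylmethionine, methyltransferases spend it and release S-adenosylhomocysteine, S-adenosylhomocysteine hydrolase splits that into homocysteine and adenosine, and homocysteine is methylated back to methionine with a methyl group from folate or from betaine. Betaine is made from choline. Pnpla7 encodes a lysophospholipase that acts on lysophosphatidylcholine and releases glycerophosphocholine, a source of choline. Liver is the main site of the cycle, and Mat1a, Gnmt and Bhmt are expressed mainly there.

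Read depth summed over all listed cytosines was 59953688 and 60535892 in KO, against 50413170 and 59437109 in WT. In these sums a read counts once at each listed cytosine it covers. The median depth at the 794 CpGs was 26 and 27 reads in KO, against 22 and 26.5 in WT. WT replicate 1 was the shallowest library, and WT replicate 2 lay close to the KO libraries. The liver was sampled whole, so a level is a share of reads from all its cells, and a change in the mix of cells and a change within cells cannot be told apart. Start windows (1 kb either side of the gene start) were measured for 2 of 7 hepatocyte marker genes, with mean levels of 18.4% ± 7.58 in KO and 14.98% ± 0.200 in WT (SD, n = 2 each), and for 4 of 6 leukocyte markers, at 83.8% ± 1.07 in KO and 85.2% ± 4.16 in WT. None of the marker windows, which also covered endothelial, stellate and cholangiocyte genes, was called different, and their part in the results below was not tested.

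The CpGs of the methionine cycle genes were mostly unmethylated and did not separate by genotype. Their mean level was 31.9% and 30.9% in the KO libraries, against 31.0% and 31.1% in the WT libraries. Group means were 31.4% ± 0.713 in KO and 31.1% ± 0.0194 in WT (SD, n = 2 each), a difference of 0.313 percentage points with the libraries of the genotypes overlapping. All other analysed CpGs averaged 45.2% ± 0.0367 in KO and 44.8% ± 0.151 in WT, a difference of 0.337 points. Of the 794 CpGs, 63.1% had a mean level below 20%, 11.5% lay between 20% and 80%, and 25.4% above 80%. Among all other CpGs these shares were 45.0%, 18.6% and 36.4%. The lower mean of the methionine cycle genes is a description: the libraries cut DNA at CpG-containing sites, and these genes had 56.1% of their listed CpGs deep enough to analyse, against 45.9% in the series.

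The gene starts differed in methylation level. In 7 of the 10 genes (Mat2a, Mat2b, Ahcy, Ahcyl1, Ahcyl2, Bhmt2 and Mtr) the start window had under 5% of reads methylated in both genotypes. Gnmt and Bhmt lay between 5% and 20%, and the window used for Mat1a lay above 20%. With CpGs weighted equally the Mat1a window was near that limit, at 19.5% in KO and 20.1% in WT. Over 19729 such windows of all genes the same classes held 61.1%, 12.9% and 26.0%. Mat1a has no start in the reference tables used here, so the annotated end with more CpGs stands in for it, at position 41105012 of chromosome 14 (mm10, as all positions below).

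**Figure D1:**
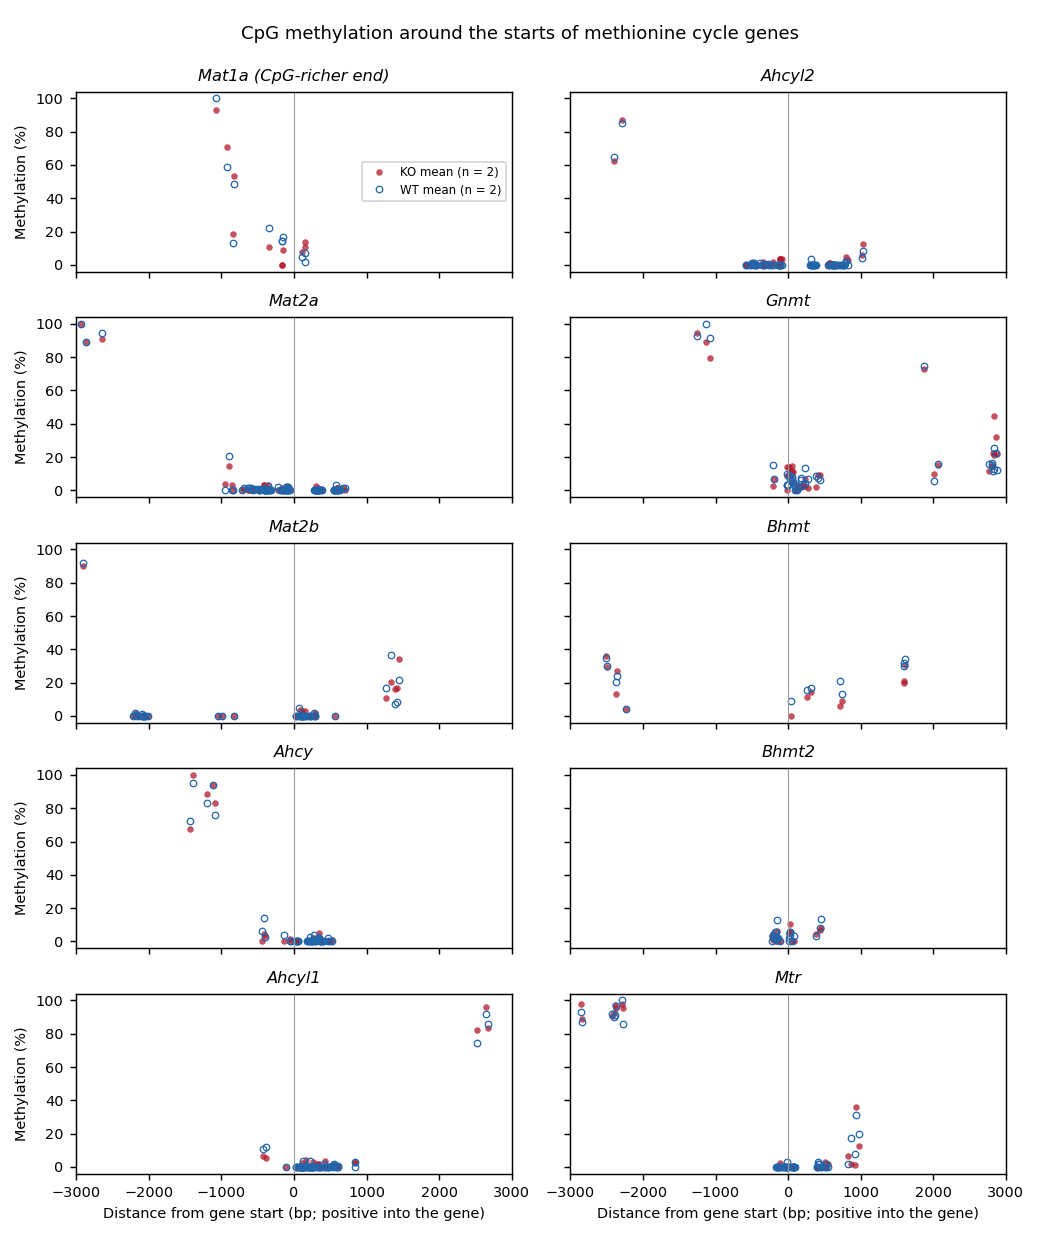
Methylation level in percent (y axis) of each analysed CpG within 3000 bp of the gene start (x axis, bp, positive into the gene), 1 panel per gene. KO and WT libraries are drawn in separate colours; most CpGs near the starts of the 7 genes with windows under 5% lie near 0 in both genotypes, with single higher CpGs such as those at the inner edge of the Mtr window.

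Mat1a encodes the methionine adenosyltransferase subunit of adult liver and lies on chromosome 14 from 41105012 to 41124428. Its window at the CpG-richer end held 10 analysed CpGs, with 28.2% and 18.3% of reads methylated in KO, against 21.7% and 21.6% in WT. The KO libraries lay on either side of both WT libraries. Within the window, 7 consecutive CpGs each averaged below 20%, from 348 bp before that end to 158 bp past it. This low stretch averaged 7.48% in KO and 11.5% in WT. Of 30 analysed CpGs in the whole region, 12 had a level between 20% and 80%, the largest such share of the 10 genes. CpGs in the rest of the gene averaged 72.4% ± 1.21 in KO and 69.1% ± 2.63 in WT (SD, n = 2 each).

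Mat2a encodes the subunit that makes S-adenosylmethionine in most other tissues and in growing liver. It lies on the minus strand of chromosome 6 from 72432796 to 72439556, with the lncRNA Particl annotated across its start. All 81 analysed CpGs of its start window formed 1 unmethylated stretch of 1652 bp. The window had 0.733% and 0.549% of reads methylated in KO, against 0.739% and 0.482% in WT, and the genotypes overlapped. The promoter is printed because it is the densest of the 8 extracted here (none for Mat1a and Mat2b), with 29 CpGs in the 250 bases before the start. Of these, 18 were measured, and 12 had no methylated read in any library. In this and the other promoters shown, the sequence (RefSeq, GRCm38.p6) runs 5′ to 3′ on the strand of the gene, and capitals mark the CpGs that were analysed.
Mat2a, chr6:72439557-72439806, minus strand: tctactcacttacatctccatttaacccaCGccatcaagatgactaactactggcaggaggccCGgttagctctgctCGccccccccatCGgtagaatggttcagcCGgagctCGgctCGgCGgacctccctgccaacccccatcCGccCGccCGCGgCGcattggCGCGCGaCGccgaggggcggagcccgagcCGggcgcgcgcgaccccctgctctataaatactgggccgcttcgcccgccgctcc
No other CpG of the gene was analysed, and the 19 CpGs of its flanks averaged 90.5% ± 1.52 in KO and 89.3% ± 0.565 in WT (SD, n = 2 each).

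Mat2b encodes the regulatory subunit that binds the Mat2a product, and lies on the minus strand of chromosome 11 from 40679314 to 40695203. Its start window of 24 CpGs had 0.752% and 0.294% of reads methylated in KO, against 0.418% and 0% in WT. The unmethylated stretch around the start was the longest of the set, with 40 CpGs over 3488 bp, and extended upstream of this start towards the outer annotated end of the gene. A 1-kb tile at that outer end, from 40694001 to 40695000, had 0% and 0.316% in KO, against 0.690% and 0% in WT.

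Gnmt encodes glycine N-methyltransferase, an abundant liver enzyme that methylates glycine and so removes surplus S-adenosylmethionine. It lies on the minus strand of chromosome 17 from 46725664 to 46729211. Its start window of 27 CpGs had 6.28% and 7.17% of reads methylated in KO, against 5.97% and 5.02% in WT. The libraries of the genotypes did not overlap there, with KO higher by 1.23 points, but the difference did not pass the test (adjusted p = 0.914, moderated quasi-binomial test). The promoter is printed from the outer annotated end of the gene outward, 204 bases that hold 3 CpGs, of which 2 were measured. The bases between that end and the start, at 46729165, are left out. The full promoter holds 6 CpGs. The other measured CpGs of the window, some of them in the bases left out, lie inside the annotated gene.
Gnmt, chr17:46729212-46729415, minus strand: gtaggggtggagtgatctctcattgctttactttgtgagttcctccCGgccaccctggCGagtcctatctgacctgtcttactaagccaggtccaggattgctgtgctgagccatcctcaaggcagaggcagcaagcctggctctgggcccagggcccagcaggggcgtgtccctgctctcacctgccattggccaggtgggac
These 2 CpGs averaged 6.67% and 2.63% in KO, against 11.0% and 11.1% in WT, the opposite direction to the window as a whole, with 13 to 19 reads at each. The body of Gnmt beyond the window was also mostly unmethylated, with 25.6% and 18.5% in KO and 20.3% and 14.6% in WT. Of the other genes with CpGs measured there, Mat2b had the lowest level, at 32.4% in KO and 30.9% in WT, and the other 7 had group means of 69.1% or more.

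Ahcy encodes the S-adenosylhomocysteine hydrolase, and lies on the minus strand of chromosome 2 from 155059310 to 155074497. Its start window of 42 CpGs had 0.398% and 0.754% of reads methylated in KO, against 1.42% and 0.992% in WT. Both KO libraries lay below both WT libraries, and the difference of -0.632 points did not pass the test (adjusted p = 0.863). A second unmethylated stretch in its flank lies at the annotated end of the neighbouring agouti gene (symbol a), where the tile from 155051001 to 155052000 averaged 0.220% in KO and 0.940% in WT.

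Ahcyl1 and Ahcyl2 encode proteins related to the hydrolase that are not known to split S-adenosylhomocysteine; the Ahcyl1 product binds the inositol trisphosphate receptor. Ahcyl1 lies on the minus strand of chromosome 3 from 107663120 to 107696560. Its start window of 61 CpGs had 0.605% and 0.402% of reads methylated in KO, against 0.575% and 0.702% in WT. Its 3 annotated starts share these 61 CpGs and could not be told apart. Ahcyl2 lies on the plus strand of chromosome 6 from 29768379 to 29912310. Its outermost start had 59 CpGs with 0.395% and 0.330% of reads methylated in KO, against 0.325% and 0.178% in WT. Its other annotated starts had 0 and 1 analysed CpGs and could not be tested. Much of the low mean of the Ahcyl2 region came from its flank, which holds the start of Strip2, with 0.734% in KO and 0.708% in WT over the 42 CpGs of the tile from 29917001 to 29918000.

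Bhmt encodes betaine-homocysteine methyltransferase, which takes the methyl group from betaine, and lies on the minus strand of chromosome 13 from 93616891 to 93637758. Its start was the least covered, with 5 analysed CpGs and 103 to 145 reads per library. The window had 9.63% and 8.97% of reads methylated in KO, against 13.2% and 17.5% in WT. Both KO libraries lay below both WT libraries, with a difference of -6.04 points that did not pass the test (adjusted p = 0.904). The promoter is printed because none of its 5 CpGs was measured, so the window rests on CpGs inside the gene.
Bhmt, chr13:93637759-93638008, minus strand: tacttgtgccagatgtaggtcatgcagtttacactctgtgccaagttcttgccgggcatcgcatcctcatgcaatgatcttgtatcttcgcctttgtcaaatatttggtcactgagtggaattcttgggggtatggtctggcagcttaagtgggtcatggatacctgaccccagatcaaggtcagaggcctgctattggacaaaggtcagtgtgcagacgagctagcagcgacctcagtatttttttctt

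Bhmt2 encodes a related methyltransferase that uses S-methylmethionine as methyl donor. It lies beside Bhmt on the same strand, from 93656097 to 93674302, and its start faces that of Dmgdh, the dimethylglycine dehydrogenase gene, across 133 bases. That gap is printed because the genes are read outward from it on opposite strands, and Dmgdh breaks down the dimethylglycine that the betaine reaction leaves. It has 6 CpGs, of which 1 was measured and had no methylated read.
Bhmt2, chr13:93674303-93674435, minus strand: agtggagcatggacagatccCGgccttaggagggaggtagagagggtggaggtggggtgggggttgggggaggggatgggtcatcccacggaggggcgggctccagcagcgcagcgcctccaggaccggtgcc
The window of 24 CpGs had 3.34% and 2.22% of reads methylated in KO, against 3.30% and 4.83% in WT, with the genotypes overlapping. Although they are neighbours, the start windows of Bhmt and Bhmt2 fell into different methylation classes.

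Mtr encodes methionine synthase, which takes the methyl group from methyltetrahydrofolate with vitamin B12 as cofactor, and lies on the minus strand of chromosome 13 from 12181331 to 12258199. Its start window of 43 CpGs had 2.11% and 1.11% of reads methylated in KO, against 1.90% and 2.95% in WT. The promoter is printed from the outer annotated end of the gene outward, 164 bases in which 8 of 9 CpGs were measured. Of these 8, 7 had no methylated read in any library. The bases between that end and the start, at 12258113, are left out. The full promoter holds 20 CpGs, and more CpGs were measured in the bases left out.
Mtr, chr13:12258200-12258363, minus strand: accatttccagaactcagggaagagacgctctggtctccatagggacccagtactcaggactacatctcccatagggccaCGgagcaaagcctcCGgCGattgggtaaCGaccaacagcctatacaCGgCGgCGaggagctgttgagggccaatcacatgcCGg
The rest of the gene was near full methylation, at 90.6% and 88.9% in KO, against 92.8% and 91.7% in WT. Both KO libraries lay below both WT libraries there, with a difference of -2.42 points in the mean, while in the flanks both lay above, at 82.8% and 83.5% in KO and 79.9% and 81.6% in WT.

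The libraries were cut at MspI and TaqI sites. The MspI site, CCGG, occurs in 47.1% of 32851 RefSeq promoters of 250 bases before the start, and the TaqI site, TCGA, in 18.5%; both read the same on either strand. The printed promoters hold 3 MspI sites at Mat2a, 1 at Gnmt, 1 at Bhmt, and 2 each at Bhmt2 and Mtr, and none holds a TaqI site. Those of Gnmt, Bhmt2 and Mtr are shorter, at 204, 133 and 164 bases. Their full 250 bases before the start hold 1, 4 and 3 MspI sites. At Bhmt, with 1 site, 0 of 5 CpGs were measured, and in the printed gap at Bhmt2, with 2 sites, 1 of 6.

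**Figure D2:**
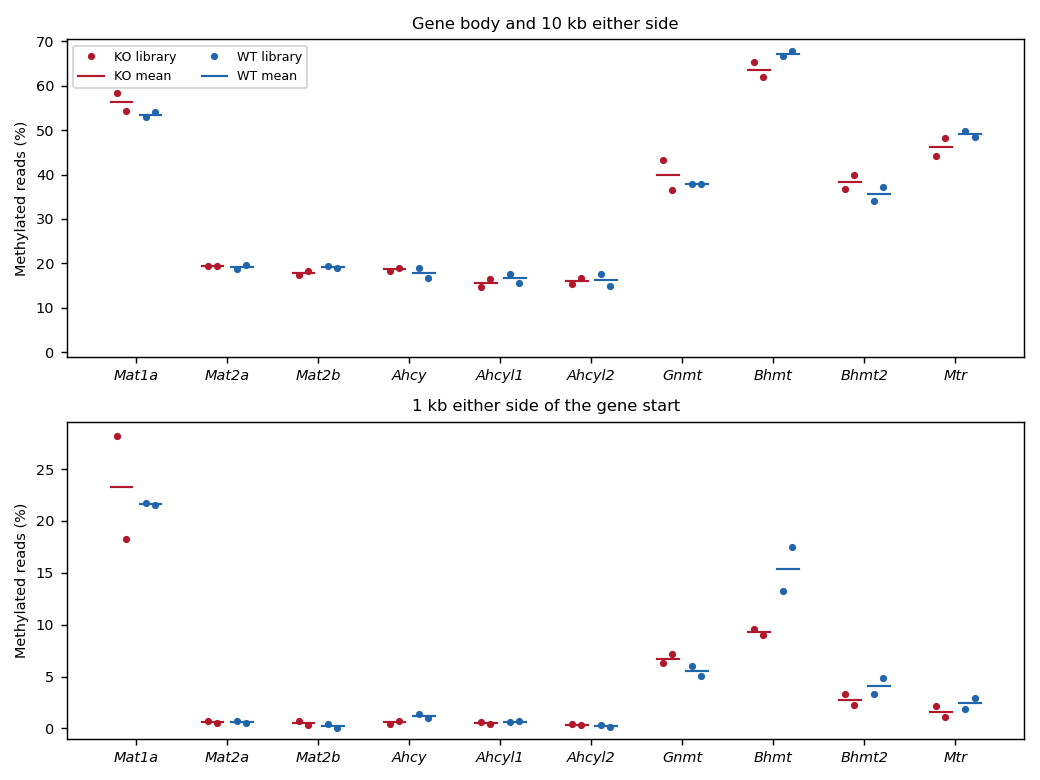
Share of methylated reads in percent (y axis) for each of the 10 genes (x axis), over the gene and 10 kb either side (upper panel) and over 1 kb either side of the start (lower panel); points are libraries and bars group means, KO left of WT. In the upper panel Ahcyl1 and Ahcyl2 are lowest, at 15.5% and 16.1% in KO and 16.6% and 16.4% in WT, and Bhmt is highest, at 63.6% in KO and 67.3% in WT, while the KO and WT means of a gene lie within 3.66 points of each other in the upper panel.

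Whether loss of Pnpla7 changed methylation of these genes was tested over whole gene regions first, and no region was called. Calls were made at an adjusted p under 0.05, taken over every feature in the genome, with KO and WT 10 percentage points or more apart, in a moderated quasi-binomial test of methylated and unmethylated reads. Of the 10 regions 0 were called, and 0 had an unadjusted p under 0.05; over 30562 regions of all genes 0 were called (0%), and 4.5% had an unadjusted p under 0.05. A limma test on log ratios also called 0 of the 10. Over gene bodies alone 2 regions had an unadjusted p under 0.05, Bhmt2 with a difference of 8.75 points and Mtr with -5.64. Neither was called (adjusted p = 0.990 for both), and the share of all gene bodies under 0.05 was not counted. Both values sum reads over low start CpGs and high body CpGs together. With CpGs weighted equally, Bhmt2 beyond its start window averaged 84.3% in KO and 84.1% in WT, and Mtr 89.8% and 92.2%. The Bhmt2 tiles differed by -2.05 to 3.09 points. How far the split of reads made the larger body differences was not tested. KO was higher in 5 regions and lower in 5, against 51.3% higher among all regions. The libraries of the genotypes did not overlap in 4 regions, against 33.3% of all regions.

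Bhmt had the largest difference of the 10 regions, with 65.3% and 62.0% in KO, against 66.8% and 67.8% in WT. The difference of the means was -3.66 points (adjusted p = 0.992), and the 95% interval of the difference in pooled reads ran from -8.43 to 0.990. Mtr had 44.1% and 48.2% in KO, against 49.9% and 48.4% in WT, a difference of -3.02 points with an interval from -6.99 to 1.03; it ranged from -5.06 to -0.973 with single libraries left out, and was -0.238 with CpGs weighted equally. In Bhmt and Mtr the KO libraries were the lower ones, without passing the test, while the third remethylation gene, Bhmt2, was higher in KO. Mat1a had 58.4% and 54.3% in KO, against 53.0% and 54.0% in WT, a difference of 2.81 points with an interval from -3.24 to 8.18. Bhmt2 had 36.9% and 39.8% in KO, against 34.1% and 37.2% in WT, a difference of 2.71 points with an interval from -2.11 to 7.48. Gnmt had 43.3% and 36.6% in KO, against 37.9% and 37.8% in WT, a difference of 2.09 points with an interval from -2.83 to 6.82. At Gnmt and Mat1a, KO replicate 1 stood above the other 3 libraries, and at Gnmt the other KO library lay below both WT libraries. The remaining regions differed by less: Mat2b had 17.8% ± 0.592 in KO and 19.2% ± 0.457 in WT (SD, n = 2 each), and Mat2a, Ahcy, Ahcyl1 and Ahcyl2 differed by 0.153, 0.776, -1.08 and -0.290 points. The intervals of all 10 regions, which are not adjusted for their number, lay within 10 points on either side of 0.

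**Figure D3:**
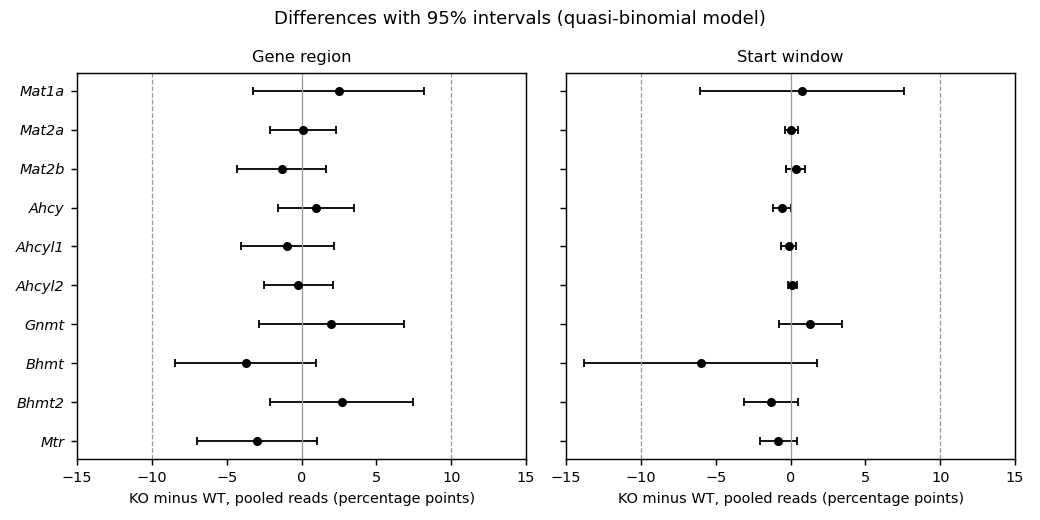
Difference between KO and WT in percentage points of pooled reads (x axis) for each gene (y axis), with its 95% interval from the quasi-binomial model; the left panel shows gene regions and the right panel start windows, and dashed lines mark the 10-point limit for a call. All intervals include 0, and all but that of the Bhmt start, which reaches -13.8, lie inside the dashed lines.

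The start windows gave the same count. Of 10 windows 0 were called and 0 had an unadjusted p under 0.05, with limma also at 0; over all genes 6 of 19729 windows were called (0.0304%), and 5.75% had an unadjusted p under 0.05. KO was higher in 5 windows, against 50.9% of all windows. The genotypes did not overlap in 4 windows (Ahcy, Ahcyl2, Gnmt and Bhmt), against 34.5% of all windows. At the starts with the most analysed CpGs the intervals were narrow, from -0.360 to 0.457 points at Mat2a and from -0.656 to 0.371 at Ahcyl1. At the sparsely covered Bhmt start the interval ran from -13.8 to 1.78, which takes in a difference of 10 points.

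Tiles of 1 kb were used to look for differences smaller than a gene, and none was called. Of 82 tested tiles, 0 were called against 129 of 163610 over the genome (0.0788%), and 3 had an unadjusted p under 0.05, or 3.66%, against 5.78% of all tiles. A limma test on log ratios called 0 and gave 7 an unadjusted p under 0.05. The limma share over all tiles was not counted, so this count has no background beside it. KO was higher in 46 tiles, against 54% of all tiles, and lower in 36, with a median difference of 0.203 points, against 0.177 over all tiles. The genotypes did not overlap in 36.6% of the tiles, against 34.5% of all.

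The 3 tiles with an unadjusted p under 0.05 lay at Gnmt, Ahcy and Bhmt. The Gnmt tile covers the start, from 46729001 to 46730000, with 6.74% and 9.06% in KO, against 5.28% and 4.97% in WT (adjusted p = 0.793). The Ahcy tile also covers the start, from 155074001 to 155075000, with 0.360% and 0.794% in KO, against 1.48% and 1.03% in WT (adjusted p = 0.823). The Bhmt tile lies inside the gene, from 93625001 to 93626000, with 93.2% and 94.4% in KO, against 86.6% and 87.7% in WT (adjusted p = 0.839). So in Bhmt the methylated body was higher in KO at this tile, while the start window was lower. The genotypes did not overlap in 7 of the 10 Bhmt tiles, against 34.5% of all tiles. Shares above 34.5% were also found at Ahcy (4 of 7), Mat1a (3 of 6), Ahcyl1 (2 of 4) and Bhmt2 (2 of 5). Shares below it were found at Gnmt (4 of 12), Mat2a (2 of 6), Ahcyl2 (2 of 13), Mat2b (1 of 6) and Mtr (4 of 14).

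Among the tiles of smallest p in the other genes, 1 differed by 10 points or more. It lies in Mat2b from 40682001 to 40683000, with 93.0% and 90.2% in KO, against 88.0% and 71.4% in WT, over 3 CpGs and 43 to 61 reads per library (adjusted p = 0.885). A single low library, WT replicate 2, made the difference of 11.9 points. At Mat1a the tile at the CpG-richer end, from 41105001 to 41106000, had 14.4% and 7.79% in KO, against 3.88% and 6.62% in WT (adjusted p = 0.883). At Mtr the tile from 12242001 to 12243000 had 91.9% and 93.7% in KO, against 97.4% and 98.4% in WT (adjusted p = 0.891). At Ahcyl1 the tile from 107667001 to 107668000 had 94.7% and 93.5% in KO, against 83.5% and 91.0% in WT (adjusted p = 0.892). In the flank of Ahcyl2 the tile from 29758001 to 29759000 lies in Smo, the gene of the hedgehog pathway signal transducer, and had 82.8% and 81.6% in KO, against 79.5% and 67.6% in WT (adjusted p = 0.899). The tile shared by Bhmt and Bhmt2, from 93647001 to 93648000, had 98.1% and 98.3% in KO, against 93.5% and 96.7% in WT (adjusted p = 0.920). At Mat2a the tile at the start, from 72439001 to 72440000, had 0.357% and 0.498% in KO, against 0.234% and 0.247% in WT (adjusted p = 0.950). These tiles were picked as the smallest p of each gene, so that their genotypes stand apart is a consequence of the choice.

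**Figure D4:**
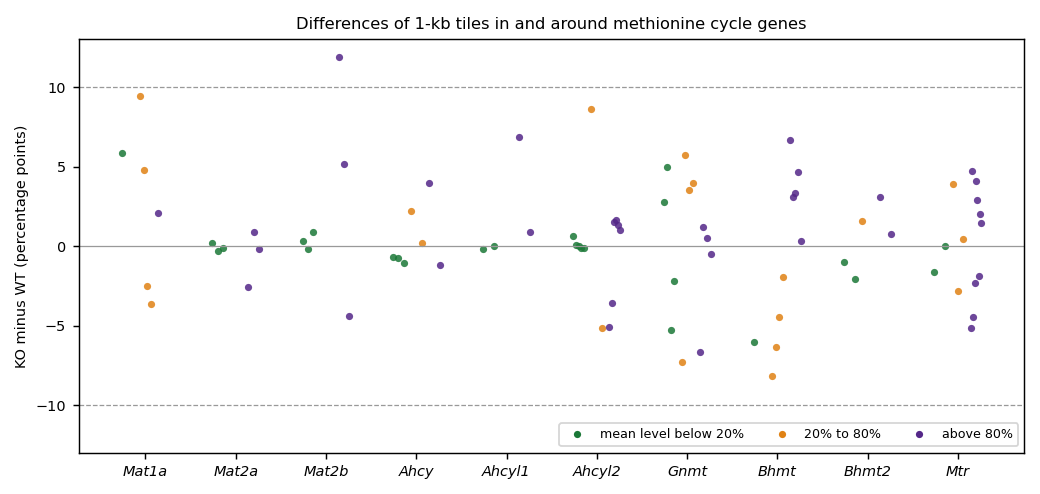
Difference between KO and WT in percentage points (y axis) of each tested 1-kb tile, by gene (x axis), coloured by the mean level of the tile. Tiles below 20% mean level reach from -6.04 points at the Bhmt start to 5.85 points at the Mat1a end, and the tile in Mat2b is the only one of the 82 past 10 points.

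Within the Gnmt flank the libraries of one genotype differed more than the genotypes did. The tile from 46723001 to 46724000 lies in Pex6, a peroxisome biogenesis gene, and had 63.0% and 45.0% in KO, against 45.0% and 51.5% in WT (adjusted p = 0.941). KO replicate 1 alone was high, and the other 3 libraries lay together. With KO replicate 2 left out this tile was called, at a difference of 14.7 points (adjusted p = 0.00854). It was the only tile or CpG of these genes called under any alternative.

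Single CpGs showed no call either. Of 530 tested CpGs 0 were called, against 106 of 1263975 over the genome (0.00839%), and 26 had an unadjusted p under 0.05, or 4.91%, against 4.01% of all CpGs. A limma test on log ratios called 0 and gave 35 an unadjusted p under 0.05, and its share over all CpGs was not counted. KO was higher at 276 CpGs, against 51.6% of all, and lower at 252, and the genotypes did not overlap at 27.2%, the same share as in the genome, 27.2%. The smallest adjusted p was 0.782, so at this depth no single CpG could be told apart between genotypes.

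Other genes that supply, spend or recycle methyl groups were read from a list of 39. Of their 39 gene regions 0 were called, with 2 at an unadjusted p under 0.05, near the 4.5% of all regions, and of 32 start windows 0 were called. KO was higher in 15 regions, against 51.3% of all regions, and lower in 24, with a median difference of -0.113 points, against 0.0541 over all regions. The regions with the smallest p were those of 2 salvage genes: Enoph1 averaged 14.6% in KO and 16.6% in WT (adjusted p = 0.992), and Mtap averaged 28.3% in KO and 32.4% in WT (adjusted p = 0.992). Both encode enzymes that return the methylthio group of methylthioadenosine to methionine. Among salvage and polyamine genes KO was lower in 7 of 9 regions, in methyl supply in 8 of 11, and among S-adenosylmethionine users in 5 of 11, in transsulfuration in 2 of 6 and in adenosine removal in 2 of 2.

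Of 413 tiles at these 39 genes, 2 were called, or 0.484%, against 0.0788% of all tiles. The tile from 102188001 to 102189000 of chromosome 15 lies in Csad, which encodes the cysteine sulfinate decarboxylase of taurine synthesis. It rose in KO, with 52.2% and 60.7% in KO, against 35.2% and 40.4% in WT, over 11 CpGs and 389 to 473 reads per library. The difference was 18.6 points (adjusted p = 0.0103), and 14.4 to 22.9 points with each library left out in turn. The tile was called in each of these fits too, but there the genotype with 1 library is assumed to vary like the other. The tile from 76324001 to 76325000 of chromosome 12, in the flank of the folate enzyme gene Mthfd1, lies in Akap5 and fell by 15.4 points in KO (adjusted p = 0.0103). It had 38.1% and 44.0% in KO, against 58.1% and 54.7% in WT. With each library left out in turn its difference was -18.3 to -12.4 points. A limma test on log ratios called neither tile (adjusted p = 0.894 for both), nor any other tile of the genome, and at a coverage minimum of 20 reads the Akap5 tile was no longer called, at -7.84 points (adjusted p = 0.811).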

How the data were processed

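Genomic DNA from liver was digested with TaqI and MspI, bisulfite converted and sequenced, per the labels' protocols. For each library the authors deposited separate tracks of methylation and of depth on build mm10, whose headers name the program GBSA, per the file headers. The deposited values are of no standard unit: the level is a fraction and the depth a read count, both negated for cytosines of the reverse strand. BWA 0.7.12 and MACS are named, without a role, in the submitters' processing notes, and no more is said of the upstream steps in the labels.

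Level times depth was whole at 100% of positions (tolerance 1e-06) and gave methylated and total reads. Both strands were summed, and a CpG was kept where all libraries had 10 reads or more; reads without molecular identifiers are not independent molecules. Reads were summed over gene regions, start windows and 1-kb tiles, each with at least 3 such CpGs. Gene positions came from RefSeq on the same assembly, with starts and strands from its promoter sequences for 9 of the 10 genes. Exons and introns were not annotated there.

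KO and WT were compared by a quasi-binomial model with a moderated spread (R 4.3.3, limma 3.58.1, data.table version 1.17.8): the Pearson dispersion was shrunk towards a prior from informative features (binomial variance 5 reads or more throughout) and held at 1 or above. The two-sided test was a quasi-likelihood F test, with p-values adjusted by the Benjamini-Hochberg method over all features tested. "Adjusted p" always means this test, unless limma is named. Differences are of library means, and intervals of pooled reads. Tables and figures used pandas 2.3.3 and matplotlib 3.10.9.

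The genes, lists, prior and alternatives were chosen with earlier results of these data known. The text names all 10 genes, the tile of smallest p in each, called tiles and CpGs, and called features of the 39-gene list; the Pex6 tile, Enoph1, Mtap and single tiles given to describe a start or flank were added after values were seen. Alternatives covered the prior, the test, coverage minimums of 5 and 20 reads, window shapes, very deep CpGs left out, a block for replicate number and single libraries left out.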

Additional observations from a re-analysis of the deposited data

How the results depend on the processing

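The counts of called gene regions, start windows and CpGs of the 10 genes were 0 under every alternative run, and the count of called tiles was 0 in all but 1, ranging from 0 to 1 as single libraries were left out (the Pex6 tile, without KO replicate 2). Windows at every RefSeq start, an alternative added after seeing the data, also gave 0. Directions of small, uncalled differences turned under some settings. At a coverage minimum of 20 reads the region differences became -0.385 points for Mat2a, 0.664 for Ahcyl2 and -1.68 for Bhmt2, and the Mat2a start -0.0535. Gene bodies alone gave 0.0316 for Mat2b. With CpGs weighted equally the regions gave 0.483 for Mat2b, -0.328 for Ahcy, 0.311 for Ahcyl1, 0.219 for Ahcyl2 and -0.0664 for Bhmt2. Windows of 500 bp either side gave -0.232 at the Mat1a end and -0.0197 at the Ahcyl2 start. With single libraries left out, region differences ranged from -0.311 to 0.616 for Mat2a, -0.320 to 1.87 for Ahcy, -1.64 to 1.06 for Ahcyl2 and -1.24 to 5.42 for Gnmt, and start differences from -3.35 to 6.52 for Mat1a and -0.0983 to 0.159 for Mat2a. Other region differences kept their sign but moved: with single libraries left out, Bhmt ranged from -5.32 to -2.01, Mat1a from 0.761 to 4.86 and Bhmt2 from 1.15 to 4.27; with CpGs weighted equally Bhmt was -1.19 and Mat1a 1.71; at a coverage minimum of 20 reads they were -1.34 and 6.27, and over gene bodies -0.897 and 4.92. The values with CpGs weighted equally use the same CpGs as the main ones and leave out only the read weights. The cause of the other moves was not tested. Unadjusted p under 0.05 was reached by at most 2 of the 10 regions and 3 of the 10 start windows under any alternative, and none passed adjustment. The difference in mean CpG level was -0.00877 points when weighted by reads, and -0.191 to 0.818 with single libraries left out.

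The replicate numbers did not pair the libraries: deviations of same-numbered libraries correlated at -0.0102 over 45320 tiles. With the replicate block all counts for the 10 genes stayed 0, while calls over the genome were 353 tiles, 26 start windows and 319 CpGs, against 129, 6 and 106 without it. The block fit gave all tiles a common spread, and likewise all start windows and all CpGs. Its counts are therefore not like for like with those without it. Genome-wide tile calls were 165 to 387 with single libraries left out, and 77 at a coverage minimum of 20 reads; CpG calls were 0 to 7 with single libraries left out, 9 with the prior on all features and 192 with limma. With 2 libraries per genotype, and 5 CpGs at the Bhmt start, small differences could not be resolved.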

Other observations

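Single CpGs with the smallest p, named after their values were seen, lay in or near 5 of the genes, and none was called. A CpG in the flank of Ahcy lies 435 bp before the start, at position 155074932 of chromosome 2, within the annotated lncRNA Gm45609. It had 0% in both KO libraries, against 6.25% and 6.67% in WT, over 32 to 65 reads (adjusted p = 0.782, moderated quasi-binomial test). A CpG inside Mat1a, at position 41114487 of chromosome 14, had 85% and 86.4% in KO, against 56.3% and 50.0% in WT, over 16 to 22 reads (adjusted p = 0.782). A neighbour of that Mat1a CpG at 41114785 went the other way, with a mean of 77.6% in KO and 100% in WT. A CpG inside Mtr, at 12257243 of chromosome 13 and 870 bp past the start, had 3.23% and 0% in KO, against 20.8% and 13.3% in WT (adjusted p = 0.782). The CpG at 93647140, shared by the flanks of Bhmt and Bhmt2, had 100% in both KO libraries, against 81.8% and 92.9% in WT (adjusted p = 0.782).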
